A study of Mus musculus with 18 samples.

Results

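Mural cells wrap blood vessels, and cancer-associated fibroblasts build the matrix of a tumour. The 10 genes described here mark those cells: Acta2, Tagln, Myh11, Des, Rgs5, Pdgfrb, Pdgfra, Cspg4, Notch3 and Postn. They were chosen by gene name and not by a cut on a measured value, though earlier results of these data were known. The 3 tables list 35310 genes, and all 10 were listed in each table. They had 33 transcripts in MCA205 cells, 34 in TC1 cells and 39 in TC1 tumours. RNA of the mouse had been sequenced in 18 libraries, 3 in each of 6 groups. The groups were MCA205 cells in culture and TC1 cells in culture, each wild type or with NAT10 targeted by a guide RNA (labelled sgNAT10), and tumours of wild-type or sgNAT10 TC1 cells taken on day 8 after cells had been placed under the skin of mice. MCA205 is a fibrosarcoma line made with methylcholanthrene. TC1 is usually described as a lung epithelial line carrying papillomavirus oncogenes, while the labels used here name it a fibrosarcoma too. NAT10 places N4-acetylcytidine on RNA. No label gives the strain, sex or age of the mice or says whether the sgNAT10 cells are 1 clone. Nor does any name a separate culture or mouse for each of the 3 libraries, so the p-values reflect library-to-library variation that could be technical only.

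Pericytes sit on capillaries and smooth muscle cells on larger vessels. Both are recruited by platelet-derived growth factor B from endothelial cells, which is received by PDGFRB on the mural cell, and NOTCH3 is a receptor through which endothelial cells keep vascular smooth muscle in its contractile state. ACTA2, TAGLN, MYH11 and desmin are the contractile and structural proteins of that state. RGS5 and CSPG4 (the NG2 proteoglycan) are pericyte markers. PDGFRA is the receptor that marks most fibroblasts, and periostin, from Postn, is a secreted matrix protein made by fibroblasts in wounds and tumours. ACTA2 is shared by smooth muscle and by myofibroblasts. Tumour cells of mesenchymal type can express several of these genes themselves, so cultured cells are the reference for the tumours here.

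Libraries held between 51661298 and 78501790 estimated counts. Nat10 lay between 11.7 and 16.3 FPKM (fragments per kilobase of transcript and library size) in the 18 libraries, and its difference between sgNAT10 and wild type was 0.00 ± 0.06 (SE) on the log2 scale in MCA205 cells, -0.22 ± 0.11 in TC1 cells and -0.22 ± 0.15 in tumours, with adjusted p of 0.984, 0.161 and 0.336. Its transcript level therefore does not separate the genotypes, and the labels were not checked by it. Transcripts of other tissues were present in many libraries. The summed level of 8 intestine genes was 5.91, 334 and 165 FPKM in the wild-type MCA205 libraries, 133, 1.48 and 154 in the sgNAT10 MCA205 libraries, 132 to 461 in TC1 cells and 2.08 to 54.9 in tumours. MCA205 wild type 1, MCA205 sgNAT10 2 and tumour wild type 1 stood apart as the libraries with little of it. Of 8 liver genes, the sum was 668 to 1178 FPKM in TC1 cells, 1.40 to 191 in wild-type tumours and 454 to 503 in sgNAT10 tumours. The labelled cell types were checked against 12 general fibroblast genes, whose sum was 126 to 146 FPKM in wild-type and 330 to 342 in sgNAT10 MCA205 cells, and 207 to 269 in wild-type and 81.9 to 84.3 in sgNAT10 TC1 cells. The sum of 6 epithelial genes ran from 39.6 to 189 FPKM in TC1 cells and from 0.609 to 112 in MCA205 cells. These ranges overlapped, so that sum does not tell the lines apart.

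Tumours and cultured TC1 cells were compared first, to see which of the 10 genes rise when the cells grow in a mouse with its own vessels and fibroblasts. In wild type, Postn, Acta2, Rgs5 and Pdgfrb were higher in tumours and Notch3 was lower. With sgNAT10, Postn, Rgs5, Pdgfrb, Pdgfra and Cspg4 were higher in tumours and Notch3 was again lower. That is 4 higher and 1 lower of 10 in wild type, where 24.0% of all genes tested were higher and 24.4% lower. It is 5 higher and 1 lower of 10 with sgNAT10, where the shares of all genes were 28.9% and 26.5%. The median log2 difference of the 10 genes was 0.21 in wild type and 1.12 with sgNAT10, beside -0.01 and 0.03 for all genes tested. The comparison was made with edgeR quasi-likelihood tests at an adjusted p under 0.05. Tumours and cells are in separate tables, so growth in the mouse and the handling of each set of libraries cannot be told apart. Markers of immune cells were higher in tumours of both genotypes, with 10 of 10 macrophage, 6 of 6 T cell and 5 of 5 neutrophil genes called. The macrophage sum was 60.9 to 169 FPKM in TC1 cells and 1272 to 1850 in tumours. Their part in the members' differences was not tested. In these bulk samples fewer cells of a type and less RNA per cell cannot be told apart either.

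**Figure D1:**
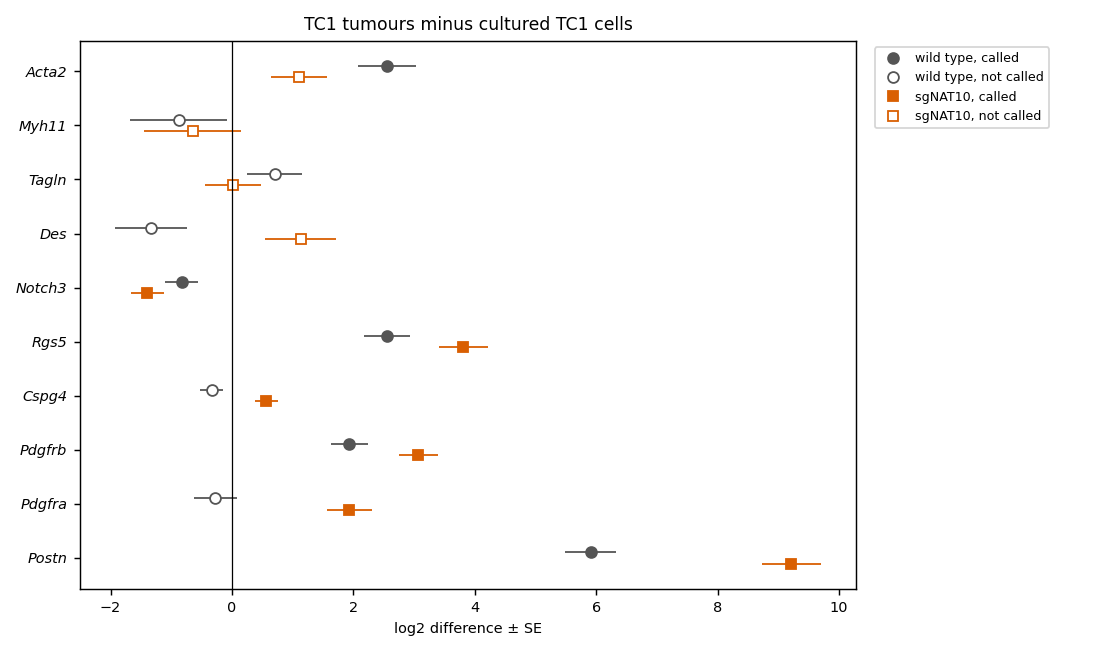
Log2 difference of TC1 tumours minus cultured TC1 cells for the 10 genes (x axis, log2, bars are SE), grey circles for wild type and orange squares for sgNAT10, filled where the adjusted p was under 0.05 (edgeR). Postn lies farthest to the right in both genotypes, at 5.91 and 9.21, and Notch3 is the gene called to the left in both.

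The effect of sgNAT10 was then compared within each setting. In MCA205 cells 2 of the 10 genes were higher (Cspg4 and Pdgfra) and 2 lower (Pdgfrb and Notch3), beside 21.2% higher and 19.4% lower of all genes tested. In TC1 cells 0 were higher and 4 were lower (Pdgfra, Cspg4, Pdgfrb and Tagln), beside 15.9% and 22.0% of all genes. At an unadjusted p under 0.05 edgeR also had 0 higher, while DESeq2 called 1, Notch3. Without TC1 wild type 1, sgNAT10 2 or sgNAT10 3 the count in TC1 cells was 2, and without wild type 3 it was 7. In tumours 3 were higher (Postn, Des and Rgs5) and 2 lower (Acta2 and Tagln), beside 7.65% and 9.72% of all genes. The tumour count was 3 without wild type 2 or any 1 of the sgNAT10 tumours. With the intestine sum as a covariate, added after the data were seen, it was 7, as Myh11 and Cspg4 were then called lower too. The sum of 5 adipocyte genes also stood apart, at 20.7 to 38.7 FPKM in wild-type and 53.3 to 66.6 in sgNAT10 tumours. Of these, 0 of 3 tested were called by edgeR and 2 were higher at an unadjusted p under 0.05. The sum of 6 epidermis genes was 2.28 to 9.87 FPKM in wild-type and 1.37 to 182 in sgNAT10 tumours, and so overlapped. Of these, 0 of 5 tested were called by edgeR and 2 were higher at an unadjusted p under 0.05. The part of fat or skin in the members' differences was not tested. No member was called in the same direction in all 3 settings. The median log2 difference of the 10 genes was -0.95 in MCA205 cells, -1.04 in TC1 cells and 0.16 in tumours, beside -0.03, -0.08 and 0.02 for all genes tested.

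**Figure D2:**
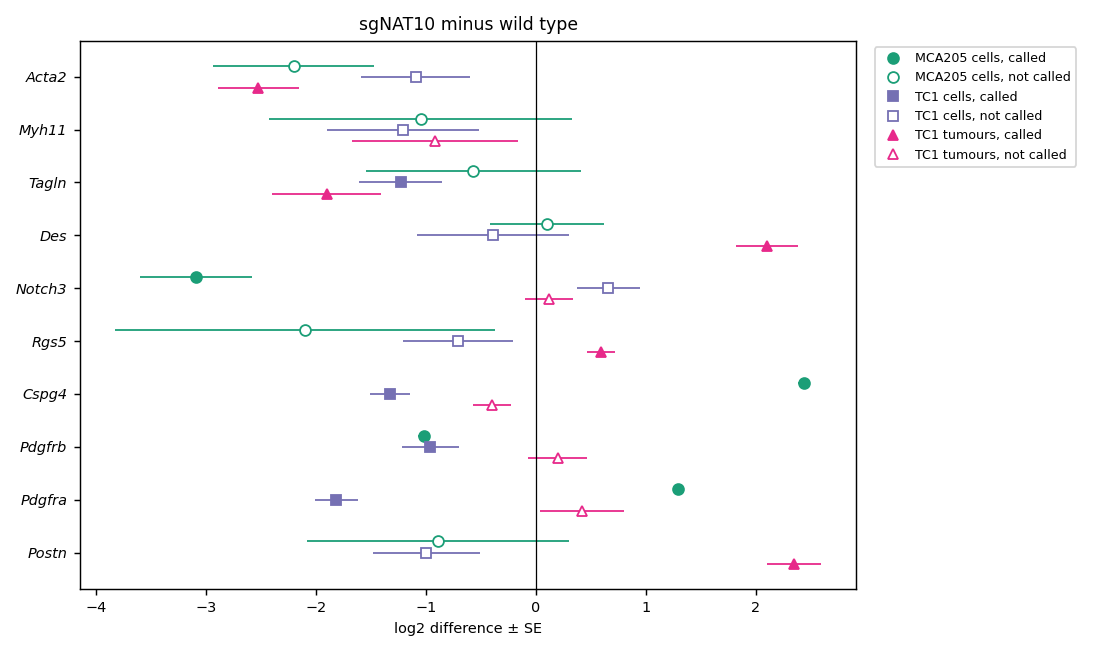
Log2 difference of sgNAT10 minus wild type for the 10 genes (x axis, log2, bars are SE) in MCA205 cells (circles), TC1 cells (squares) and TC1 tumours (triangles), filled where the adjusted p was under 0.05 (edgeR). Cspg4 and Pdgfra are called to the right in MCA205 cells and to the left in TC1 cells, while Postn and Des are called to the right in tumours.

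Acta2 encodes smooth muscle alpha-actin and lies on chromosome 19 from 34241090 to 34255590 on the minus strand in mm10. Wild-type tumours held 58.6, 60.0 and 25.1 FPKM of Acta2, and sgNAT10 tumours 7.91, 10.5 and 9.18. The groups did not overlap, and the lowest wild-type tumour stood well above the highest sgNAT10 tumour. The difference was -2.52 ± 0.37 on the log2 scale (adjusted p = 0.00794). It passed in every alternative run for it, including each library left out, with values from -2.86 to -2.17. In culture, wild-type TC1 cells held 11.4, 11.0 and 3.93 FPKM and sgNAT10 TC1 cells 6.06, 4.48 and 2.14. These groups overlapped, and the difference of -1.09 ± 0.50 did not pass (adjusted p = 0.133). Without TC1 wild type 3 it passed, at -1.35 with an adjusted p of 0.0481. MCA205 cells held 8.44, 15.1 and 11.6 FPKM in wild type and 3.22, 0.383 and 4.02 with sgNAT10, again without overlap. The MCA205 difference of -2.20 ± 0.73 had an adjusted p of 0.0503 by edgeR and of 0.0346 by DESeq2, and over its alternatives the adjusted p ran from 0.000614 to 0.120. It passed without sgNAT10 2, at -1.71 with an adjusted p of 0.00490. Between wild-type tumours and wild-type TC1 cells Acta2 differed by 2.56 ± 0.48 (adjusted p = 0.00115), and between the sgNAT10 groups by 1.11 ± 0.46 (adjusted p = 0.0604). The latter passed with DESeq2 (adjusted p = 0.0251), with both limma fits (0.0459 and 0.0417), with the 1 CPM filter (0.0490), with only the 6 libraries fitted (0.0233), and without TC1 wild type 3 (1.10), TC1 sgNAT10 1 (1.47) or tumour wild type 3 (1.11). By group mean, wild-type tumours ranked first at 47.9 ± 19.7 FPKM, followed by wild-type MCA205 cells at 11.7 ± 3.36, sgNAT10 tumours at 9.19 ± 1.29 and wild-type TC1 cells at 8.79 ± 4.21, and those 3 neighbours lay within their spread. Acta1, the closely related skeletal muscle actin, moved the other way in tumours, from 9.62 ± 0.698 to 51.8 ± 16.1 FPKM. How reads were divided between these related genes is the authors' choice and was not tested.

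The CArG box is the element bound by serum response factor in smooth muscle genes, so letters that resemble it near the start of Acta2 are shown. In the 250 bases before the RefSeq start (GRCm38.p6), 2 sites matched a CArG box with 1 mismatch each, at 84 and 34 bases before that start. The GENCODE transcript that holds nearly all Acta2 FPKM, ENSMUST00000039631, starts farther upstream, and both sites lie inside its first exon (34255290 to 34255590). They are printed with 10 bases on each side, 5′ to 3′, and capitals mark the match.
Acta2 site at chr19:34255438-34255467, minus strand: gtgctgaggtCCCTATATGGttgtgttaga
Acta2 site at chr19:34255388-34255417, minus strand: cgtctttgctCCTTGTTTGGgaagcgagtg
A window with at least 1 such match on either strand was found for 18.6% of 32851 RefSeq windows of the same length, and a perfect match for 1.47%. Of the 7 members with a window in the table, Cspg4 also had 2 overlapping matches, while Des, Rgs5, Postn, Pdgfra and Notch3 had 0. A match describes the letters only. Srf, which encodes serum response factor, was at 24.8 ± 4.07 FPKM in wild-type and 13.2 ± 0.483 in sgNAT10 tumours, a log2 difference of -1.08 (adjusted p = 0.0119).

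Tagln encodes transgelin, an actin-binding protein of smooth muscle (chromosome 9, 45929619 to 45936058). Wild-type tumours held 12.8, 7.48 and 4.22 FPKM and sgNAT10 tumours 1.60, 2.60 and 3.24, so every wild-type tumour was above every sgNAT10 tumour. The difference was -1.90 ± 0.50 (adjusted p = 0.0400). That call is fragile: without filtering the adjusted p was 0.0706, and it ended when tumour wild type 1, tumour wild type 2 or any 1 of the sgNAT10 tumours was left out, with values from -2.17 to -1.30 and adjusted p up to 0.131. It also ended with replicate number as a block (adjusted p = 0.142 by edgeR). TC1 cells held 5.87, 7.82 and 2.82 FPKM in wild type and 2.74, 2.67 and 1.94 with sgNAT10, with the lowest wild-type library just above the highest sgNAT10 library. The difference of -1.23 ± 0.38 passed (adjusted p = 0.0398), but not with either limma fit (adjusted p = 0.0604 and 0.0594), not without filtering (0.0644), and not without wild type 1 (-1.08), wild type 2 (-0.83), or any 1 of the sgNAT10 libraries (down to -0.97), with adjusted p up to 0.160. In MCA205 cells Tagln ranged from 0.226 to 3.92 FPKM and the groups overlapped (-0.57 ± 0.98, adjusted p = 0.699). Tumours and TC1 cells did not differ past the threshold in Tagln, at 0.70 ± 0.46 in wild type and 0.01 ± 0.46 with sgNAT10 (adjusted p = 0.225 and 0.985).

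Myh11, the smooth muscle myosin heavy chain gene on chromosome 16 (14194535 to 14291372), is the most specific marker of smooth muscle among the 10 and was among the lowest. Wild-type TC1 cells held 2.35, 2.51 and 0.311 FPKM and sgNAT10 TC1 cells 1.01, 0.690 and 0.580. Wild-type tumours held 0.105, 1.30 and 1.31 and sgNAT10 tumours 0.316, 0.747 and 0.415. The 2 highest TC1 cell libraries, from cultures without vessels, were thus above every tumour. MCA205 cells held 0.0271, 1.66 and 0.579 in wild type and 0.494, 0.0196 and 0.522 with sgNAT10. The low libraries of each set (MCA205 wild type 1, MCA205 sgNAT10 2, TC1 wild type 3 and tumour wild type 1) were the libraries of lowest intestine sum in their group, as the plot of members against marker sums shows. No comparison of Myh11 passed, with log2 differences from -1.20 ± 0.69 to -0.65 ± 0.80 over the 5 comparisons of groups. Without TC1 wild type 3 it was lower in sgNAT10 TC1 cells (-1.61, adjusted p = 0.00647), and without tumour wild type 1 lower in sgNAT10 tumours (-1.43, adjusted p = 0.0343). With the intestine sum as a covariate, added after the data were seen, Myh11 was higher in tumours than in cells, by 2.83 in wild type (adjusted p = 0.00608) and 2.06 with sgNAT10 (adjusted p = 0.00464), where the values without it were -0.88 and -0.65. The intestine sum was 132 to 461 FPKM in TC1 cells and 2.08 to 54.9 in tumours, without overlap. That covariate therefore cannot be told apart from tumour against cells, and no conclusion is drawn from the change of sign. Between tumour genotypes the intestine sums overlapped, at 2.08 to 54.9 FPKM in wild type and 10.5 to 38.0 with sgNAT10. With the covariate in that comparison, Myh11 was lower in sgNAT10 tumours (adjusted p = 0.0197 by edgeR). Whether the intestine transcripts account for the Myh11 levels was not tested.

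**Figure D3:**
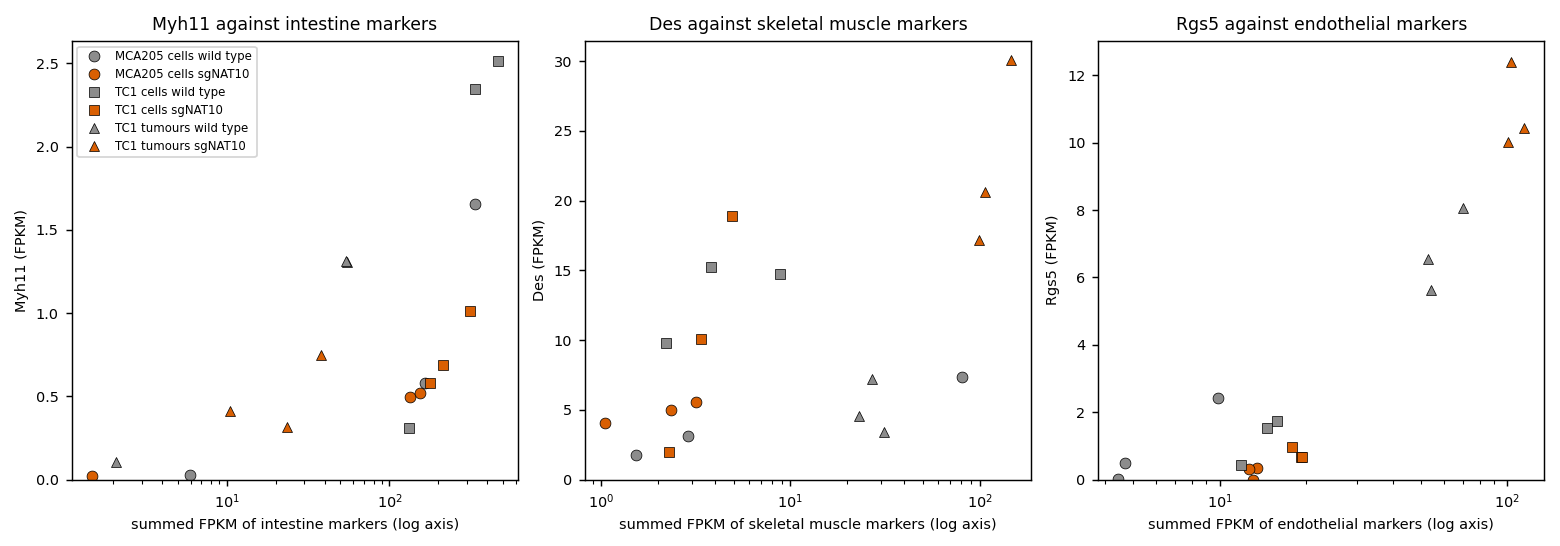
FPKM (y axes, linear) in 18 libraries of Myh11 against the summed FPKM of 8 intestine genes, of Des against 10 skeletal muscle genes and of Rgs5 against 10 endothelial genes (x axes, log), grey for wild type and orange for sgNAT10, circles MCA205 cells, squares TC1 cells, triangles tumours. Myh11 is lowest in the 3 libraries at the far left of its panel, whose intestine sums are 1.48, 2.08 and 5.91, and the 3 sgNAT10 tumours hold the most Des and Rgs5 among tumours together with the highest muscle and endothelial sums.

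Des encodes desmin, the intermediate filament of pericytes, smooth muscle and striated muscle (chromosome 1, 75360329 to 75368579). Wild-type tumours held 3.43, 4.53 and 7.24 FPKM, and sgNAT10 tumours 30.04, 20.6 and 17.2. No sgNAT10 tumour came near the wild-type range. Des rose by 2.10 ± 0.28 on the log2 scale in sgNAT10 tumours (adjusted p = 0.00646), and this passed in every alternative run, from 1.85 to 2.39. Skeletal muscle genes moved with it: their summed level was 31.3, 23.2 and 26.9 FPKM in wild-type and 146, 107 and 98.8 in sgNAT10 tumours, and 5 of 10 were called higher and 0 lower, with a median of 1.77. None of the 10 was at 0 in any tumour. The muscle genes Ckm and Mylpf, for example, went from 1.28 ± 0.878 to 5.61 ± 2.18 FPKM and from 5.19 ± 0.265 to 16.9 ± 4.41. The part of these transcripts in the Des value was not tested. TC1 cells already held 14.7, 15.2 and 9.80 FPKM of Des in wild type and 18.9, 10.1 and 1.98 with sgNAT10, with muscle sums of 2.19 to 8.84 FPKM. In those libraries Des varied widely among sgNAT10 replicates, and the genotypes did not differ past the threshold (-0.39 ± 0.69, adjusted p = 0.709). Against their cells, Des in wild-type tumours was at -1.33 ± 0.59 (adjusted p = 0.0852) and in sgNAT10 tumours at 1.13 ± 0.59 (adjusted p = 0.124), and neither passed. The first passed with only its 6 libraries fitted (-1.29, adjusted p = 0.00964) and without TC1 sgNAT10 3 (-1.29, adjusted p = 0.00793). The second passed with both limma fits (adjusted p = 0.0370 and 0.0444) and without TC1 sgNAT10 1 (1.95, adjusted p = 0.0191). In MCA205 cells Des lay between 1.80 and 7.38 FPKM (0.10 ± 0.52, adjusted p = 0.905). Without wild type 2, the library with a muscle sum of 80.9 FPKM, the MCA205 value was 0.95 (adjusted p = 0.0381).

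Rgs5, a regulator of G protein signalling and a pericyte marker (chromosome 1, 169655501 to 169695813), held 5.64, 6.55 and 8.05 FPKM in wild-type tumours and 10.4, 12.4 and 10.02 in sgNAT10 tumours. The groups did not overlap. Rgs5 rose by 0.59 ± 0.13 in sgNAT10 tumours (adjusted p = 0.0225), a call lost without wild type 2 or any 1 of the sgNAT10 tumours, with values of 0.51 to 0.64 and adjusted p up to 0.107. The call was also lost with replicate number as a block. Endothelial genes were higher in the same tumours: the summed level of 10 was 54.2, 52.9 and 70.2 FPKM in wild type and 114, 103 and 101 with sgNAT10. Of these, 8 were called higher and 0 lower, none was at 0 in a tumour, and Pecam1 stood at 14.9 ± 1.64 against 25.2 ± 1.63 FPKM. Their part in the Rgs5 difference was not tested. Cultured TC1 cells held 1.52, 1.74 and 0.421 FPKM in wild type and 0.967, 0.683 and 0.664 with sgNAT10, all below every tumour. Tumours exceeded cells by 2.55 ± 0.38 in wild type and 3.81 ± 0.40 with sgNAT10 (adjusted p = 0.000273 and 1.36e-05), and both passed in every alternative run. In MCA205 cells Rgs5 ran from 0 in sgNAT10 2 to 2.44 FPKM in wild type 2, and the genotypes overlapped (-2.10 ± 1.73, adjusted p = 0.393). The TC1 genotypes overlapped too (-0.71 ± 0.50, adjusted p = 0.319), and passed only without wild type 3 among the alternatives run (-1.02, adjusted p = 0.0224).

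Pdgfrb, the receptor for platelet-derived growth factor B on chromosome 18 (61045150 to 61085061), was higher in tumours than in cells. Wild-type TC1 cells held 5.005, 2.97 and 2.80 FPKM and wild-type tumours 7.91, 12.1 and 19.6. The sgNAT10 cells held 1.46, 2.06 and 2.17 and their tumours 15.4, 19.97 and 12.9. Every tumour stood above every TC1 cell library, by 1.93 ± 0.30 on the log2 scale in wild type (adjusted p = 0.000382) and by 3.07 ± 0.32 with sgNAT10 (adjusted p = 1.19e-05). The 2 groups of tumours overlapped (0.20 ± 0.27, adjusted p = 0.625). In culture Pdgfrb fell by 0.96 on the log2 scale in sgNAT10 TC1 cells (SE 0.26, adjusted p = 0.0245). Wild type 1 was the highest library there, and without it the difference was -0.55 (adjusted p = 0.0810); it also missed the threshold without any 1 of the sgNAT10 libraries, from -0.96 to -0.72 with adjusted p up to 0.0982. MCA205 cells held 9.58, 9.76 and 10.3 FPKM in wild type and 4.64, 4.78 and 5.20 with sgNAT10. Those replicates were tight, and the fall of 1.02 on the log2 scale (SE 0.05, adjusted p = 2.09e-05) passed in every alternative run. The sgNAT10 effect did not differ past the threshold between the lines (-0.11 ± 0.28, adjusted p = 0.811).

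Cspg4, which encodes a proteoglycan of pericytes and of glial and tumour cells (chromosome 9, 56865033 to 56899870), moved in opposite directions in the cell lines. MCA205 cells held 1.97, 2.28 and 2.31 FPKM in wild type and 11.4, 11.3 and 11.9 with sgNAT10. TC1 cells held 5.13, 5.97 and 4.99 in wild type and 1.54, 2.43 and 2.58 with sgNAT10. In neither line did the genotypes overlap. Cspg4 rose by 2.44 ± 0.05 in MCA205 cells (adjusted p = 5.89e-07) and fell by 1.32 on the log2 scale in TC1 cells (SE 0.18, adjusted p = 0.00158), and both passed in every alternative run. Tumours held 3.27, 5.25 and 4.41 FPKM in wild type and 3.24, 4.14 and 2.85 with sgNAT10, and the genotypes overlapped (-0.40 ± 0.17, adjusted p = 0.146). Among the alternatives run, this difference passed only with the intestine sum as a covariate (adjusted p = 0.0447 by edgeR). Against their own cells, wild-type tumours differed by -0.34 ± 0.19 (adjusted p = 0.170) and sgNAT10 tumours by 0.57 ± 0.19 (adjusted p = 0.0268). That small rise was lost without TC1 sgNAT10 1 (0.37), tumour sgNAT10 1 (0.58) or tumour sgNAT10 2 (0.44), with adjusted p up to 0.111, and with library size alone as the scaling (0.52, adjusted p = 0.0517). By mean, sgNAT10 MCA205 cells ranked first of the 6 groups at 11.5 ± 0.341 FPKM, outside the spread of wild-type TC1 cells at 5.37 ± 0.528, while sgNAT10 TC1 cells at 2.18 ± 0.562 and wild-type MCA205 cells at 2.19 ± 0.191 came last and did not differ beyond their spread.

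Notch3, the mural Notch receptor (chromosome 17, 32120820 to 32166852), was low everywhere. TC1 cells held 0.905, 0.873 and 0.757 FPKM in wild type and 0.784, 1.64 and 1.74 with sgNAT10, whereas wild-type tumours held 0.349, 0.451 and 0.559 and sgNAT10 tumours 0.541, 0.528 and 0.526. All tumours were below all TC1 cell libraries. Tumours were lower by 1.39 on the log2 scale with sgNAT10 (-1.39 ± 0.27, adjusted p = 0.00104), which passed in every alternative run. In wild type the difference was -0.83 ± 0.27 (adjusted p = 0.0232), but the call was lost without TC1 wild type 1 (-0.73), TC1 wild type 2 (-0.76), tumour wild type 1 (-0.72) or tumour wild type 2 (-0.81), and with the intestine sum as a covariate (-0.63, adjusted p = 0.344). The genotypes were close in tumours (0.12 ± 0.21, adjusted p = 0.721). In TC1 cells the difference of 0.66 ± 0.29 did not pass with edgeR (adjusted p = 0.121) but passed with DESeq2 (0.74, adjusted p = 0.0272) and without sgNAT10 1 (1.03, adjusted p = 0.00246). MCA205 cells held 0.209, 0.452 and 0.308 FPKM in wild type and 0.0377, 0.0170 and 0.0554 with sgNAT10, the latter from 19, 12 and 28 estimated counts. The genotypes did not overlap, and Notch3 fell by 3.09 on the log2 scale (SE 0.51, adjusted p = 0.00294).

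Pdgfra, the receptor that marks fibroblasts, spans 75152292 to 75198215 on chromosome 5. Wild-type TC1 cells held 19.2, 17.1 and 17.6 FPKM and sgNAT10 TC1 cells 3.88, 6.46 and 6.51. The wild-type libraries stood together far above the others, and Pdgfra fell by 1.81 on the log2 scale (SE 0.19, adjusted p = 0.000564). MCA205 cells went the other way, from 3.73, 3.88 and 3.52 FPKM to 8.76, 8.76 and 9.24, a rise of 1.30 ± 0.05 (adjusted p = 5.84e-06). Both calls passed in every alternative run. Tumours held 8.57, 10.4 and 23.4 FPKM in wild type and 28.0, 16.2 and 14.1 with sgNAT10, with a wide spread and overlap (0.42 ± 0.38, adjusted p = 0.467). Wild-type tumours and their cells did not differ past the threshold (-0.28 ± 0.35, adjusted p = 0.543), with 1 of 3 above all cell libraries. Without tumour wild type 3, that library, the value was -0.82 (adjusted p = 0.0446). The sgNAT10 tumours each stood above each sgNAT10 cell library and exceeded them by 1.93 ± 0.37 (adjusted p = 0.000943).

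The Pdgfra level in TC1 cells was split between a pair of coding transcripts with different first exons. ENSMUST00000000476 starts at 75152306 in mm10 and ENSMUST00000168162 at 75155899, and both have 23 exons. In wild-type TC1 cells the upstream transcript was at 10.3, 11.2 and 8.27 FPKM and the downstream one at 7.74, 4.40 and 8.01. In sgNAT10 TC1 cells the upstream transcript was listed at 0 in all 3 libraries and the downstream one at 3.30, 5.23 and 5.56. Most of the TC1 difference in Pdgfra thus lay in the transcript with the upstream start, and no test was made on single transcripts. MCA205 cells used the downstream transcript, at 3.36, 3.51 and 3.14 FPKM in wild type and 8.20, 8.20 and 6.74 with sgNAT10, with the upstream one at 1.78 in 1 library and 0 in the other 5. Tumours held the upstream transcript at 5.74, 1.28 and 0 FPKM in wild type and 6.06, 3.06 and 9.41 with sgNAT10. The sgNAT10 tumours thus all held a transcript listed at 0 in the cultured sgNAT10 cells. The transcripts share most of their exons, so their division is the authors' estimate, and a 0 can come from that estimate. The sequence before the upstream start is printed because the authors' estimates place most of the TC1 difference in that transcript. It is the 250 bases before the RefSeq start (GRCm38.p6), which lies slightly upstream of that transcript, 5′ to 3′, with each CG dinucleotide in capitals.
Pdgfra upstream window at chr5:75152001-75152250, plus strand: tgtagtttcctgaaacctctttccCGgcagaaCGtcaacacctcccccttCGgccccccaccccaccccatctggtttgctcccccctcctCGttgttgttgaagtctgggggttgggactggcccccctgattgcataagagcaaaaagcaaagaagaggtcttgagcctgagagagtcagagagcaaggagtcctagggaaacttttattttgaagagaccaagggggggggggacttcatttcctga
The window holds 4 CG dinucleotides, beside a median of 6 in all RefSeq windows, of which 44.4% hold 4 or fewer. No methylation was measured here.

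**Figure D4:**
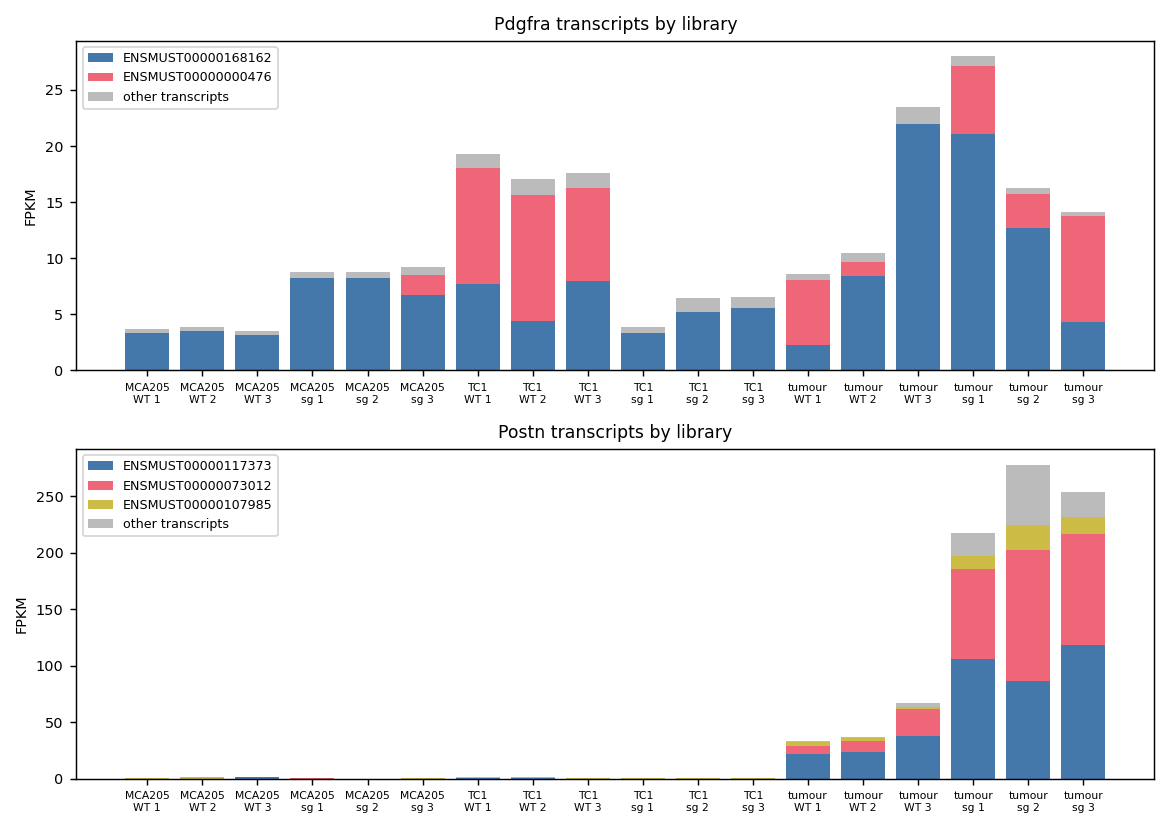
FPKM of Pdgfra (top) and Postn (bottom) in 18 libraries (x axis, libraries by group; y axis, FPKM from 0), stacked by transcript. The upstream Pdgfra transcript ENSMUST00000000476 is present in the 3 wild-type TC1 cell libraries and listed at 0 in the 3 sgNAT10 ones, and Postn is near 0 outside tumours.

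Postn had the largest range of the 10 genes. It lies on chromosome 3 from 54361109 to 54391037. Wild-type tumours held 33.4, 37.1 and 66.9 FPKM and sgNAT10 tumours 218, 278 and 254. All sgNAT10 tumours were far above all wild-type tumours, and Postn rose by 2.35 ± 0.24 on the log2 scale (adjusted p = 0.00365), passing in every alternative run with values from 2.20 to 2.65. Cultured TC1 cells held 0.996, 1.10 and 0.500 FPKM in wild type and 0.705, 0.489 and 0.232 with sgNAT10, from 48 to 205 estimated counts. No cell library came near a tumour. The tumours exceeded their cells by 5.91 ± 0.42 in wild type (adjusted p = 1.89e-06) and 9.21 ± 0.49 with sgNAT10 (adjusted p = 9.74e-08). In culture the genotypes did not differ past the threshold, at -0.995 ± 0.49 in TC1 cells (adjusted p = 0.158) and -0.89 ± 1.19 in MCA205 cells (adjusted p = 0.614), where the level ran from 0.0206 to 1.65 FPKM. The lowest MCA205 values, in wild type 1 and sgNAT10 2, were again the libraries with little intestine RNA.

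Among the Postn transcripts, ENSMUST00000117373 took 62.8 ± 5.70% of the estimated counts in wild-type tumours and 42.7 ± 9.37% in sgNAT10 tumours. ENSMUST00000073012, with 1 exon more, took 27.8 ± 8.19% and 40.3 ± 2.98%. In shares by library the first ran from 56.2% to 66.6% in wild type and 31.9% to 49.0% with sgNAT10, so it did not overlap between genotypes. With 3 libraries against 3 an exact test cannot go below 0.10, and none was made. Both transcripts start just after the window printed here, which is shown because Postn has the widest range of the 10 genes. It is a RefSeq window of 250 bases (GRCm38.p6), 5′ to 3′, with TATAAA in capitals.
Postn window at chr3:54360857-54361106, plus strand: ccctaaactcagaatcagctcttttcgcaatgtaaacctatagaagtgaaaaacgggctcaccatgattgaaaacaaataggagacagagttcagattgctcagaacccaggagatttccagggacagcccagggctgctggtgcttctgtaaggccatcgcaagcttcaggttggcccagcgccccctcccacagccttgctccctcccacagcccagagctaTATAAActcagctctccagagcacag
The TATAAA, the usual letters of a TATA box, begins 26 bases before the start. Either strand of a RefSeq window of this length held TATAAA in 12.4% of cases, and among the 7 members with a window only Postn did. Another RefSeq window of Postn, farther upstream at chr3:54359017-54359266, held no TATAAA.

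**Figure D5:**
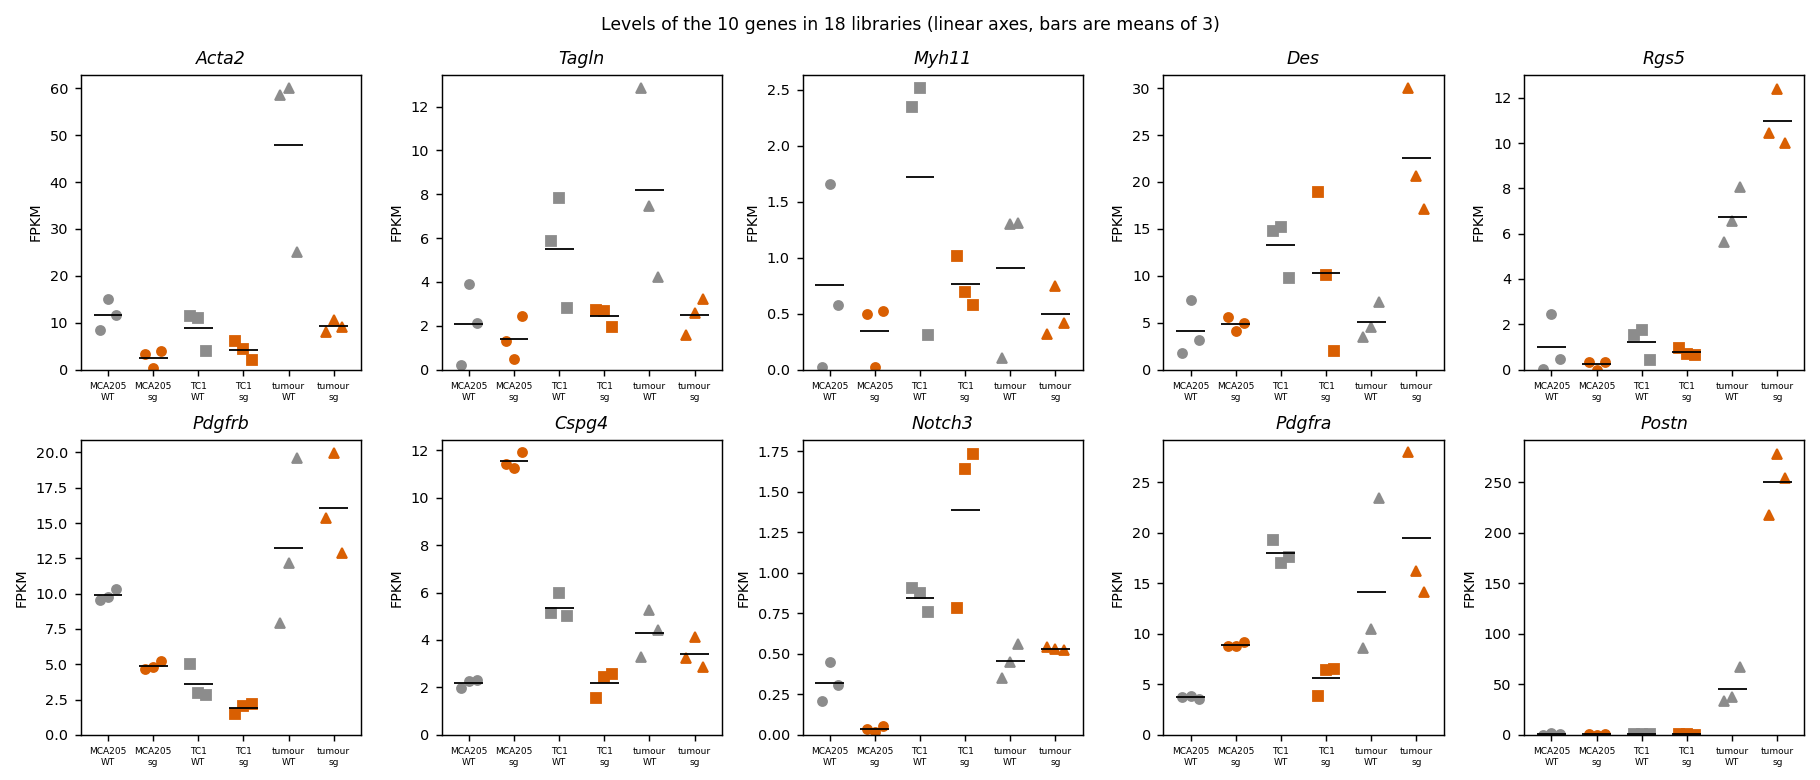
FPKM of each of the 10 genes (y axes, linear from 0) in the 18 libraries, by group (x axes; WT wild type, sg sgNAT10), with grey for wild type and orange for sgNAT10 and a bar at the mean of 3. Acta2 and Tagln are lower, and Des, Rgs5 and Postn higher, in sgNAT10 than in wild-type tumours, without overlap of the points.

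The sgNAT10 effect itself was compared between settings with interaction contrasts over 12 libraries. Between tumours and TC1 cells it differed for 3 of 10 members, beside 26.1% of all genes tested. Postn differed by 3.31 ± 0.53 (adjusted p = 0.000969), Pdgfra by 2.21 ± 0.51 (adjusted p = 0.00811) and Cspg4 by 0.90 ± 0.27 (adjusted p = 0.0308), each being more positive in tumours. The Cspg4 difference was lost without TC1 wild type 1 (0.86), TC1 wild type 2 (0.80), tumour wild type 1 (0.76), tumour sgNAT10 1 (0.91) or tumour sgNAT10 2 (0.77), with adjusted p up to 0.0832. Des missed the threshold, at 2.46 ± 0.84 (adjusted p = 0.0504), and passed without TC1 sgNAT10 1 (3.24), TC1 sgNAT10 3 (1.92) or tumour wild type 3 (2.78). Des stayed uncalled in 12 of its 21 alternatives, and the further runs in which it passed kept all libraries and changed the fit. Over all 10 genes, DESeq2 and the limma fit on log2(FPKM + 1) each called 5 members. Acta2 did not differ past the threshold (-1.45 ± 0.64, adjusted p = 0.123), but did without tumour wild type 3 (-1.78), as did Pdgfrb (1.49). Rgs5 passed without TC1 wild type 3 (1.63) and Notch3 without TC1 sgNAT10 1 (-0.89). The count of 3 was thus 5 without TC1 sgNAT10 1 and 6 without tumour wild type 3, and 2 without each library that ended the Cspg4 call. Between MCA205 and TC1 cells the effect differed for 3 of 10 members, beside 35.3% of all genes. Cspg4 differed by 3.71 ± 0.21 and Pdgfra by 3.06 ± 0.23, more positive in MCA205 cells, and Notch3 by -3.81 ± 0.61, with adjusted p of 6.20e-07, 3.74e-06 and 0.000667. These 3 passed with each 1 of the 12 libraries left out.

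Ranked by mean FPKM within a group, Acta2 led in wild-type tumours and wild-type MCA205 cells, Postn in sgNAT10 tumours, Cspg4 in sgNAT10 MCA205 cells, Pdgfra in wild-type TC1 cells and Des in sgNAT10 TC1 cells. In wild-type tumours Acta2 at 47.9 ± 19.7 and Postn at 45.8 ± 18.4 FPKM could not be put in order beyond their spread. In sgNAT10 tumours Postn at 250 ± 30.5 FPKM was followed by Des at 22.6 ± 6.67 and Pdgfra at 19.4 ± 7.48, which could not be ordered beyond their spread. Of the 10, Myh11 and Notch3 were the lowest in both kinds of tumour, at 0.907 ± 0.695 and 0.453 ± 0.105 FPKM in wild type.

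Other genes of these cells and pathways came from 8 lists. Their counts called stand beside these shares of all genes tested, higher and lower. In wild-type tumours against cells they were 24.0% and 24.4%, and with sgNAT10 28.9% and 26.5%. Between genotypes they were 21.2% and 19.4% in MCA205 cells, 15.9% and 22.0% in TC1 cells, and 7.65% and 9.72% in tumours. A count near its share is no result about the list. Of 12 further pericyte genes, 8 were higher and 2 lower in wild-type tumours than in wild-type cells (median log2 difference 2.41), and 8 higher and 0 lower with sgNAT10 (median 3.13). Mcam, a pericyte and endothelial adhesion molecule, was at 2.74 ± 0.676 FPKM in wild-type TC1 cells and 19.6 ± 2.74 in their tumours (2.93, adjusted p = 5.53e-07). Kcnj8, a subunit of the pericyte potassium channel, was at 0.353 ± 0.165 and 1.73 ± 0.349 (2.37, adjusted p = 0.000227), and the transcription factor gene Tbx18 at 0.172 ± 0.262 and 6.93 ± 0.649 (5.38, adjusted p = 0.000482). Vtn and Anpep, for vitronectin and an aminopeptidase, were the 2 lower, at 15.5 ± 6.41 and 32.3 ± 18.4 FPKM in wild-type cells against 3.30 ± 2.85 and 11.5 ± 1.92 in tumours. The summed level of the 12 genes was 24.7 to 75.7 FPKM in wild-type cells and 48.9 to 57.2 in wild-type tumours, and so overlapped. Vtn and Anpep made up most of the mean sum of 52.8 FPKM in wild-type cells, so the overlap says little about the other genes of the list. Those cells also had the high liver and intestine sums given above, whose part in the Vtn and Anpep levels was not tested. Higd1b, a pericyte marker, had 0 counts in all cell libraries and 110 over the wild-type tumours, which is at least 29.9-fold higher against a floor of 3 counts over the group. Between genotypes the calls were 0 higher and 1 lower of 12 in tumours (4 and 1 at an unadjusted p under 0.05), 0 and 1 of 10 tested in TC1 cells, and 0 and 2 of 8 tested in MCA205 cells, with medians of 0.35, -0.21 and -0.87. The sum was 73.0 to 80.8 FPKM in sgNAT10 tumours, above all wild-type tumours. Foxs1 was the one lower in sgNAT10 tumours, at 1.17 ± 0.335 against 2.84 ± 0.482 FPKM (-1.41, adjusted p = 0.0271).

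Contractile genes gave a mixed picture. Of 12, 2 were higher and 2 lower in wild-type tumours than in cells, and 4 and 6 with sgNAT10, with medians of -0.21 and -0.35. Cald1 (caldesmon) was at 65.0 ± 12.4 FPKM in wild-type cells and 135 ± 25.5 in tumours (1.16, adjusted p = 9.77e-05), and Smtn (smoothelin) at 65.1 ± 8.29 and 32.2 ± 2.62 (-0.94, adjusted p = 0.000229). In sgNAT10 tumours 4 of 11 tested were lower than in wild type and 1 higher, with a median of -0.44. Myl9, the regulatory light chain of smooth muscle myosin, was at 2.65 ± 0.708 against 7.64 ± 0.990 FPKM (-1.63, adjusted p = 0.00887), alongside Acta2 and Tagln. Mylk, the kinase of that light chain, rose from 1.61 ± 0.427 to 5.98 ± 1.40 (1.76, adjusted p = 0.00407). In TC1 cells 1 was higher and 1 lower of 12, and in MCA205 cells 3 and 2 of 11 tested. Tpm1 (tropomyosin) fell in MCA205 cells, from 401 ± 22.7 to 271 ± 2.06 FPKM (-0.60, adjusted p = 7.53e-05). Of the 10 regulators of smooth muscle genes, 2 were higher and 5 lower in wild-type tumours than in cells, and 0 higher and 2 lower of 8 tested between genotypes in tumours, namely Srf and Foxf1. Ebf1, a transcription factor of pericytes and stromal cells, went from 0.962 ± 0.249 FPKM in wild-type to 0.0211 ± 0.0191 in sgNAT10 TC1 cells (-5.28, adjusted p = 0.00286) and stood at 8.13 ± 0.893 in wild-type and 7.12 ± 0.676 in sgNAT10 tumours. In TC1 cells 1 regulator was higher and 4 lower of 10, and in MCA205 cells 4 and 2 of 9 tested.

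Of 12 general fibroblast genes, 7 were higher and 2 lower in wild-type tumours than in cells (median 3.16), and 10 higher and 0 lower with sgNAT10 (median 5.77). Col1a1 was at 2.37 ± 1.04 FPKM in wild-type TC1 cells and 43.9 ± 7.95 in tumours (4.31, adjusted p = 7.48e-06), and Col3a1 at 27.2 ± 6.05 and 338 ± 238 (3.68, adjusted p = 3.98e-05). In sgNAT10 TC1 cells 7 of 12 were lower than in wild type and 0 higher (median -1.93), led by the collagen genes Col1a2 (-6.11, adjusted p = 1.76e-05) and Col6a3 (-3.31, adjusted p = 0.000132). In sgNAT10 tumours 2 were higher and 0 lower, the matrix protein genes Lum at 9.99 ± 3.56 against 2.68 ± 0.703 FPKM (1.81, adjusted p = 0.0122) and Dpt at 5.38 ± 1.22 against 2.35 ± 0.274 (1.07, adjusted p = 0.0321). MCA205 cells had 3 higher and 2 lower of 12. Dcn (decorin) rose there from 14.2 ± 3.41 to 195 ± 3.88 FPKM (3.79, adjusted p = 7.73e-06).

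Of 12 tumour fibroblast genes, 7 were higher and 1 lower in wild-type tumours than in cells (median 0.74), and 11 higher and 1 lower with sgNAT10 (median 4.33). Cxcl12, the chemokine of stromal cells, was at 2.14 ± 1.08 FPKM in wild-type cells and 62.0 ± 31.7 in tumours (4.77, adjusted p = 8.15e-06). Lrrc15 had 0 counts in all sgNAT10 TC1 cell libraries and 1542 over the sgNAT10 tumours. That is at least 484-fold higher against a floor of 3 counts over the group. In wild-type tumours Lrrc15 was at 1.17 ± 0.265 FPKM, and wild-type TC1 cells were not all at 0. Thbs2 (thrombospondin 2) fell from 19.1 ± 1.71 to 0.211 ± 0.0646 FPKM in sgNAT10 TC1 cells (-6.56, adjusted p = 8.87e-06), yet in tumours it was higher with sgNAT10, at 5.97 ± 0.870 against 2.84 ± 0.395 (0.96, adjusted p = 0.0105). Inhba, an activin subunit gene, likewise fell in TC1 cells (-1.53, adjusted p = 0.000391) and rose in tumours (0.79, adjusted p = 0.00742). The sgNAT10 effect was more positive in tumours than in TC1 cells by 7.50 ± 0.28 for Thbs2 (adjusted p = 1.04e-07) and 2.31 ± 0.19 for Inhba (adjusted p = 1.45e-05). By the same test of the difference, 26.1% of all genes tested differed in either direction. Of the 12 tumour fibroblast genes 6, and of the 12 general fibroblast genes 8, were more positive in tumours, and 0 were more negative. The list had 7 lower and 0 higher of 10 tested in TC1 cells, 4 higher and 1 lower of 12 in tumours, and 2 higher and 4 lower of 9 tested in MCA205 cells.

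Among ligands of the PDGF receptors, 3 of 4 were higher and 1 lower in wild-type tumours than in cells, and 3 and 0 with sgNAT10. Pdgfb, the ligand of PDGFRB, was at 0.288 ± 0.0765 FPKM in wild-type cells and 5.79 ± 1.05 in tumours (4.38, adjusted p = 3.12e-06). In sgNAT10 TC1 cells Pdgfc fell from 14.5 ± 1.11 to 7.05 ± 0.0390 FPKM (-1.04, adjusted p = 0.000154) and Pdgfd from 0.995 ± 0.329 to 0.0539 ± 0.0183 (-3.98, adjusted p = 0.000552), while 0 of 4 were called in tumours by edgeR, where 1 was higher (Pdgfd) and 0 lower at an unadjusted p under 0.05. In MCA205 cells 2 of 3 tested were higher, Pdgfa (0.52, adjusted p = 0.00110) and Pdgfc (0.51, adjusted p = 0.00255), and 1 was lower. Of 12 Notch genes, 6 were higher and 2 lower in wild-type tumours than in cells, and 7 and 4 with sgNAT10. Dll4, the Notch ligand of endothelial cells, was at 0.183 ± 0.0773 and 2.35 ± 0.467 FPKM (3.75, adjusted p = 5.35e-06), and Heyl, a Notch target of mural cells, at 0.0378 ± 0.0181 and 0.309 ± 0.0538 (3.06, adjusted p = 5.58e-05), while Notch3 itself was lower in tumours. In sgNAT10 tumours 3 of 12 were higher and 0 lower, among them Notch4, an endothelial receptor, at 4.07 ± 0.375 against 2.18 ± 0.588 FPKM (0.88, adjusted p = 0.0198). In sgNAT10 TC1 cells 5 were higher and 1 lower: the ligand gene Jag2 rose from 0.693 ± 0.151 to 11.7 ± 1.11 FPKM (4.18, adjusted p = 9.61e-06) and Jag1 fell from 5.58 ± 0.288 to 1.12 ± 0.0661 (-2.38, adjusted p = 1.67e-05). MCA205 cells had 1 higher and 1 lower of 9 tested.

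Transforming growth factor beta drives Acta2, Tagln and Postn in fibroblasts, as background. Of its 10 ligand, receptor and target genes, 4 were higher and 1 lower in wild-type tumours than in cells, and 5 and 2 with sgNAT10. Tgfbi, a matrix protein gene named for this induction, was at 6.79 ± 2.27 FPKM in wild-type cells and 166 ± 70.4 in tumours (4.68, adjusted p = 1.29e-06). Between genotypes in tumours 0 were higher and 2 lower, Tgfb2 at 0.962 ± 0.191 against 1.63 ± 0.320 FPKM (-0.90, adjusted p = 0.0330) and Tgfb1 at 33.6 ± 4.96 against 45.9 ± 3.36 (-0.56, adjusted p = 0.0410). In MCA205 cells Tgfbi rose from 9.38 ± 0.337 to 55.0 ± 1.09 FPKM (2.56, adjusted p = 2.14e-07), with 3 higher and 1 lower of 10. TC1 cells had 1 higher and 3 lower, with Smad7, an inhibitor of the pathway, rising from 4.75 ± 0.103 to 8.62 ± 0.710 (0.82, adjusted p = 0.000327).

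The genes most like each member were found over the 18 libraries among 17377 genes, as the smallest root mean square difference between centred log2(CPM + 1) profiles. This describes a pattern only, over libraries that share their tables and the tissue transcripts given above. Des was closest to Xirp1, Trim63 and Nrap, all genes of striated muscle, with differences of 0.48, 0.49 and 0.56. Trim63 was at 2.50 FPKM in sgNAT10 tumours and 0.137 in wild-type tumours. Rgs5 was closest to Slc7a8, Kdr and Cd36 (0.41, 0.43 and 0.45), of which Kdr encodes the endothelial growth factor receptor. Myh11 was closest to Dsg2, Pde9a and Tjp3 (0.42, 0.42 and 0.44), of which Dsg2 encodes a desmosomal cadherin and Tjp3 a tight junction protein of epithelia. Among the genes close to Postn were Cxcl9 and Aspn (0.49 and 0.59). Aspn encodes asporin, a matrix protein, and was at 26.2 FPKM in wild-type and 123 in sgNAT10 tumours. Pdgfra was closest to Col12a1, Arhgap9 and Rasip1 (0.37, 0.46 and 0.47), Pdgfrb to Zfp229, BC028528 and Spn (all 0.38), and Cspg4 to Has2, Map2k6 and Col22a1 (0.34, 0.39 and 0.39). Notch3 was closest to Gem, Tmem62 and Mxd4 (0.39, 0.40 and 0.42). Acta2, whose own root mean square spread was 1.47, was nearest to Fhl1, a ribosomal RNA entry listed as CT010467 and Dhrs3 (0.70, 0.78 and 0.85). Tagln was nearest to Smagp, Hbb-bt and Prxl2b (0.65, 0.66 and 0.69). Hbb-bt is a haemoglobin gene, and red blood cell genes were lower in sgNAT10 tumours, with 4 of 5 called and sums of 549, 320 and 170 FPKM in wild type against 74.9, 79.1 and 128. Their part in the Tagln and Acta2 differences was not tested. Among the 10 genes themselves the nearest pair was Pdgfra and Cspg4, at 0.95. Their own root mean square spreads over the 18 libraries were 0.93 and 0.84, so even this pair was not alike by this measure.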

How the data were processed

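RNA libraries were made from column-purified RNA, per the labels' protocols. Tools listed in the submitters' processing notes are FastQC, Trim Galore, Bowtie2 and featureCounts, with mm10 as the build. Which program produced the transcript values is not stated there. Each of 3 deposited tables lists transcripts with FPKM, scaled by the authors to length and library size, and with whole-number estimated counts, per the file headers; 0 value columns were without a sample. Columns labelled KO were taken as the sgNAT10 titles. Estimated counts equalled FPKM multiplied by length and 1 factor per library, within 0.352% for 99% of transcripts. So they carried no further scaling that differs between transcripts of a library. A scaling shared by all counts of a library would not show in this check. The counts were fitted across tables. A gene missing from a table was taken as 0.

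Values were summed per gene identifier, of which 99.7% were found in GENCODE M21. How reads shared by near-identical, overlapping or antisense genes were divided is the authors' choice. Differences are edgeR quasi-likelihood fits with TMM factors and filterByExpr, Benjamini-Hochberg adjusted over all 18101, 18823 or 19244 genes of a table, or 21112 and 20504 genes in 12-library fits; all 10 members passed the filter in each. Levels are means ± SD of FPKM over 3 libraries, and fold changes are log2 with SE. Within groups no libraries were duplicates (lowest chi-square per degree of freedom 11.0, at most 1.25% of counts equal).

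The 10 genes, the lists and their tests were chosen with earlier results of these data known. Text names all members, up to 4 genes of each list with the smallest p in the wild-type tumour comparison and up to 2 in each genotype comparison, of which a selection is printed, and the 3 genes most like each member, without unnamed models and pseudogenes (1 such gene is not reported here); Higd1b, Lrrc15 and the muscle, endothelial and actin genes were added after their values were seen. Alternatives were RLE factors, library size alone, no filter, 1 CPM in 3 libraries, DESeq2, limma-trend with a pseudocount of 1 or 0.1 FPKM on the log2 scale, a replicate block, only the 6 libraries compared, each library left out, and an intestine covariate added later. The edgeR step was tested on simulated data. Promoter windows are RefSeq (GRCm38.p6), found for 7 of 10 members. Fits used edgeR 4.0.16, DESeq2 1.42.0 and limma 3.58.1 in R 4.3.3, and tables and plots used pandas 2.3.3, matplotlib 3.10.9 and numpy 2.4.6 in Python 3.11.15.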

Additional observations from a re-analysis of the deposited data

Results flagged for a closer look

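The effect of sgNAT10 differed between settings, by a test of the difference itself, for 6 pairs of member and setting. Between TC1 tumours and TC1 cells the differences on the log2 scale were 2.21 ± 0.51 (SE) for Pdgfra, 0.90 ± 0.27 for Cspg4 and 3.31 ± 0.53 for Postn, with adjusted p of 0.00811, 0.0308 and 0.000969 by edgeR. Between MCA205 and TC1 cells they were 3.06 ± 0.23 for Pdgfra, 3.71 ± 0.21 for Cspg4 and -3.81 ± 0.61 for Notch3, with adjusted p of 3.74e-06, 6.20e-07 and 0.000667. All groups have 3 libraries, so single libraries were not screened as outliers.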

How the results depend on the processing

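Counts of the 10 genes called stayed within 1.5 times of the reported count in most settings. With a replicate block the tumour count was 3 in place of 5, as Tagln (-1.76, adjusted p = 0.142) and Rgs5 (0.59, adjusted p = 0.0803) no longer passed, and for the difference of the sgNAT10 effect between tumours and TC1 cells DESeq2 and limma on log2(FPKM + 1) each gave 5 in place of 3. Leaving out 1 library gave 4 to 5 called in MCA205 cells, 2 to 7 in TC1 cells, 3 to 5 in tumours, 4 to 6 between tumours and cells in wild type and 5 to 7 with sgNAT10. It gave 2 to 6 for the difference between tumours and TC1 cells and 3 to 3 for that between MCA205 and TC1 cells. The cause was not tested. Same-numbered libraries did not deviate together (correlations from -0.56 to 0.27). With 3 libraries per group this cannot exclude that the numbers pair samples. With the block, counts were 4 in MCA205 cells, 4 in TC1 cells, 5 and 7 between tumours and cells, and 4 and 3 for the differences.

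No called difference changed sign in any setting run. Uncalled ones did, 14 times outside the runs with 1 library left out. The intestine sum did not overlap between TC1 cells and tumours, so runs with that covariate cannot separate it from tumour against cells. With the intestine covariate, Tagln was 0.35 and Myh11 0.14 in MCA205 cells; in wild type Tagln was -0.21, Myh11 2.83, Pdgfra 0.23 and Cspg4 0.0029 between tumours and cells; with sgNAT10 Tagln was -0.51 and Myh11 2.06; and Myh11 was -0.76 for the difference between tumours and TC1 cells. Tagln between sgNAT10 tumours and cells was -0.027 with library size alone, -0.0070 and -0.021 with limma. Des in MCA205 cells was -0.17 without wild type 1 and sgNAT10 2 together, and Postn -0.024 for the difference between the lines with limma on log2(FPKM + 0.1). With 1 library left out, ranges that crossed 0 were -0.28 to 0.95 (Des), -1.61 to 0.19 (Myh11) and -1.30 to 0.23 (Tagln) in MCA205 cells, -1.11 to 0.22 (Des) in TC1 cells, -0.012 to 0.52 (Pdgfrb) in tumours and -0.25 to 0.26 (Tagln) between sgNAT10 tumours and cells. For the difference between tumours and TC1 cells it was -0.30 to 0.71 (Myh11). For that between the lines they were -0.49 to 1.32 (Myh11), -0.40 to 0.070 (Pdgfrb), -0.48 to 0.64 (Postn), -2.04 to 0.46 (Rgs5) and -0.12 to 1.39 (Tagln). Library size alone moved the median of all genes to 0.13 in tumours and -0.14 between wild-type tumours and cells. Low counts limit several members in MCA205 cells: sgNAT10 2 held 0 of Rgs5, 6 of Postn and 12 of Notch3.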
